A study of Mus musculus with 14 samples.

Results

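The interleukin-1 family genes described here are the ligands Il1a, Il1b and Il33, the receptor antagonist Il1rn, the signaling receptors Il1r1 and Il1rl1, their shared co-receptor Il1rap and the decoy receptor Il1r2. They were chosen by name, and all 8 were found among the 43472 genes listed. Primary fibroblasts from the tail tips of C57BL/6 mice were wounded with a scratch and were either left untreated or treated with AMG, an autologous micrograft prepared by mincing, filtering and centrifuging mouse skin, which leaves a soluble extract depleted of cells that was diluted in the growth medium. Both groups carried the scratch, no group was unwounded, and the labels give no genotype change. The 14 RNA libraries comprise a time course, replicate 1, with 1 treated and 1 untreated library at each of 1, 5, 12 and 24 h, and a set of 3 further replicates per group, numbers 2, 3 and 4, taken at 5 h alone. The labels do not say whether replicates came from separate animals or cultures, so p-values measure only the spread between these libraries. Primary cultures may hold other cell types, whose markers are given beside the results they touch.

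Interleukin-1 alpha and interleukin-1 beta are cytokines of injury and inflammation that bind the same receptor, the product of Il1r1, which then recruits the Il1rap protein and signals through MYD88 and IRAK kinases to NF-kB and MAP kinases. Interleukin-1 alpha is active as made and is released by damaged cells, whereas interleukin-1 beta must be cleaved by caspase-1. Il1rn encodes a secreted protein that occupies the receptor without signaling, and Il1r2 encodes a receptor with no signaling domain. Interleukin-33, a nuclear protein of barrier and stromal cells released on damage, signals through ST2, the product of Il1rl1, again with Il1rap. ST2 exists as a membrane receptor and as a shorter secreted form that binds interleukin-33 without signaling. Fibroblasts in culture are a known source of the secreted form, and dermal fibroblasts are a classical target of interleukin-1 in wounds.

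Sequences upstream of the transcription start are shown for the genes on which the results turn, because AP-1, the transcription factor at the center of the study, binds a short recognized site. The sequences and starts are those of RefSeq on GRCm38.p6, the assembly also called mm10, and all 8 genes matched. Each is written 5′ to 3′ on the strand of its gene and ends at or before the base preceding the start. Capitals mark a match to the AP-1 site TGANTCA, which reads as itself on both strands when its middle base is disregarded. Il1a lies on the minus strand of chromosome 2 (chr2:129299610-129309972), and the 120 bases before its start (chr2:129309973-129310092) hold one match, beginning 12 bases before the start. Il1rn, on the plus strand (chr2:24336853-24351494), holds one match 141 bases before its most upstream start (200 bases shown, chr2:24336610-24336809). The other RefSeq starts of Il1rn, at 24345291 and 24345371, hold no match and are not shown. Il1rl1, on the plus strand of chromosome 1 (chr1:40429570-40465415), has 2 RefSeq starts, of which the upstream one is known mainly from blood cells and the downstream one from fibroblasts. Neither of the windows of 120 bases shown for it (chr1:40429450-40429569 and chr1:40439509-40439628) holds a match.
Il1a: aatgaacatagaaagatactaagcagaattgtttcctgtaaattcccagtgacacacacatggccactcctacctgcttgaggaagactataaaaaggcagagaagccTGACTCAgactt
Il1rn, upstream start: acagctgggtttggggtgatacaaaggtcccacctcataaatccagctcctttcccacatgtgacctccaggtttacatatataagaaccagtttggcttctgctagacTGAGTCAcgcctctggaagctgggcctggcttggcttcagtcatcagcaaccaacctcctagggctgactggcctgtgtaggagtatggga
Il1rl1, upstream start: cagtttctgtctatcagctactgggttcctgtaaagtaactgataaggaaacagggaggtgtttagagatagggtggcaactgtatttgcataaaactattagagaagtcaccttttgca
Il1rl1, downstream start: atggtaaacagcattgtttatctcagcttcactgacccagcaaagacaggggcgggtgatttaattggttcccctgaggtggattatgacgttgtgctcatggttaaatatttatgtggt

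In windows of 250 bases before to 50 bases after the start, 7.81% of 32851 RefSeq promoters held the AP-1 site and 8.46% held the NF-kB consensus. A gene with several starts has several promoters here, so these are not shares of genes. Among the 8 genes, the AP-1 site was found for Il1a and, at its most upstream start only, for Il1rn. The NF-kB consensus was found only at the downstream start of Il1r1, 232 bases before it and on the opposite strand. These matches describe the letters of the windows and not the binding of a factor.

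The deposited values are normalized counts, that is, the reads of a gene divided by the size factor of its library. Whole reads were recovered from all of them, with totals of 12545537 to 34696529 reads per library. The shallowest and the deepest library were both untreated ones at 5 h, replicates 3 and 4. A count of 3 reads, taken as the floor, equaled a normalized count of 2.20 to 5.22 in replicate 1 and of 1.62 to 4.18 in replicates 2 to 4. The 2 sets were scaled separately by the authors, so that levels are compared within a set only. All 9 fibroblast markers had reads in every library, with Col1a1, Col1a2 and Vim leading.

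At 5 h the treated and untreated libraries of replicates 2 to 4 were compared with limma on log2(normalized count + 1) over 13096 genes with a mean normalized count of at least 10. Of the 8 genes, 6 passed that minimum, and Il1b and Il1r2 did not. Il1a and Il1rl1 rose, the 2 of these 6 whose p, adjusted by Benjamini-Hochberg over all genes, was below 0.05, and 0 fell. Over all genes tested, 0.97% were called higher and 0.267% lower. With the replicate number as a term, which paired the libraries of the same number, Il33 and Il1r1 were also called, making 4 of 6 higher, beside 17.9% of all genes called higher and 19.3% called lower. On the recovered whole reads, edgeR and DESeq2 each called Il1a and Il1rl1 higher, again 2 of 6, and 0 lower, where edgeR called 0.817% of all genes higher and 0.214% lower and DESeq2 6.52% and 4.43%. The 3 treated values lay above the 3 untreated ones for Il1a, Il33 and Il1rl1, which was also so for 15.1% of all genes tested. Il1a and Il33 passed the minimum only through their treated libraries, so that these counts are no support by themselves. The median log2 fold change over all genes tested was -0.02.

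**Figure D1:**
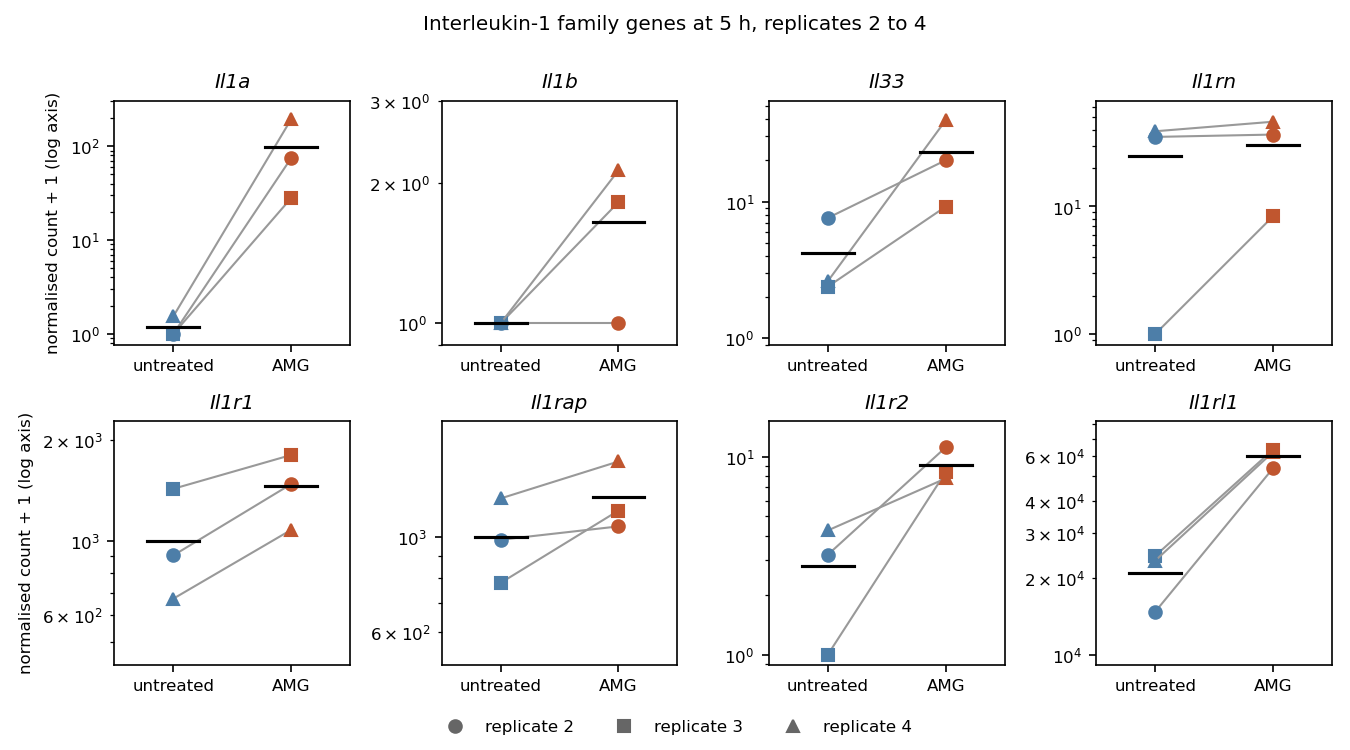
Normalized counts plus 1 (log axis, one scale per gene) of the 8 genes at 5 h in the untreated and AMG-treated libraries of replicates 2, 3 and 4. Points are libraries, gray lines join the same replicate number and black bars are group means; Il1a, Il33, Il1r2 and Il1rl1 show no overlap between groups.

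Il1a was close to absent from untreated cells and present in every treated library. Its normalized counts were 0, 0 and 0.541 in untreated replicates 2, 3 and 4, the last of these being a single read, against 73.8, 27.1 and 193 in the treated ones. No treated value came near an untreated one, although the treated values themselves spread widely. The log2 fold change was 6.00 with an SE of 0.80 (limma adjusted p = 0.0266). Summed over the 3 libraries of a group, 262 reads stood against 1, a ratio of 315 after scaling, with an exact 95% counting interval of 56.0 to 12489. That interval covers counting error in the pooled reads only and leaves out the spread between libraries. With a pseudocount of 0.1 the log2 fold change was 8.62 (limma adjusted p = 0.0393), and with a pseudocount of 10 it was 3.07 and no longer passed (limma adjusted p = 0.0633). The call was also lost when 1 of 5 libraries was left out: untreated replicates 2 (limma adjusted p = 0.113), 3 (adjusted p = 0.0584) and 4 (adjusted p = 0.102), and treated replicates 2 (adjusted p = 0.177) and 4 (adjusted p = 0.145). The log2 fold change with 1 library left out lay between 5.31 and 6.70, and its adjusted p was between 6.21e-07 and 0.177 over the 20 alternatives. The fits with 1 library left out did not use the replicate number as a term. With that term and all 6 libraries, Il1a passed (limma adjusted p = 0.000142), in a fit that called 17.9% of all genes higher.

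In replicate 1, Il1a was also higher in the treated library at all 4 times. At 1 h its normalized count was 9.67 untreated and 1061 treated, a ratio of 110 (95% counting interval 60.9 to 221). Values of 3.28 and 353 at 5 h, 0.732 and 397 at 12 h, and 0.766 and 384 at 24 h followed. The treated level was highest at 1 h and stood at 0.333 of that level at 5 h (interval 0.294 to 0.376). It then stayed between 353 and 397 up to 24 h. These comparisons between times were not corrected for transcript length, which is taken up below. The untreated library went from 11 reads at 1 h to 1 read at 12 h and at 24 h. With 1 library per group and time, none of these differences has a replicate check, and the intervals cover counting error only.

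Il1b, the other agonist of the same receptor, was at or below 8 reads in all 14 libraries. At 5 h it had 0 reads in the 3 untreated libraries of replicates 2 to 4, and 0, 1 and 1 reads in the treated ones, and it was not tested. In replicate 1 the untreated library had 3 reads at 1 h and 0 later, and the treated library had 0, 6, 8 and 1 reads at 1, 5, 12 and 24 h. For the 8 reads against 0 at 12 h, the counting interval of the ratio had a lower bound of 2.22 and no upper bound. With the floor of 3 reads put in place of 0 in the untreated library, the ratio was 3.47. At the other times a difference was not detectable at this depth. Il1a and Il1b lie on the same strand of chromosome 2, Il1b at chr2:129364570-129371139, and of this pair Il1a alone reached the minimum for a test.

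Il33 had few reads in every library and was higher with treatment at 5 h. Its normalized counts were 6.60, 1.39 and 1.62 in untreated replicates 2 to 4 and 19.1, 8.20 and 38.4 in the treated ones. The groups did not overlap, but the lowest treated value was only just above the highest untreated one. The log2 fold change was 2.42 with an SE of 0.80, and it did not pass (limma adjusted p = 0.150), whereas with the replicate number as a term it did (limma adjusted p = 0.0152). In replicate 1 at 5 h the counts were 8.20 untreated and 111 treated, a ratio of 13.5 (interval 5.65 to 42.2).

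The difference in Il33 at the other times of replicate 1 was smaller and changed direction. Counts of 25.5 and 38.3 at 1 h gave an interval of the ratio that included 1 (0.822 to 2.70). At 12 h the treated library was higher, with 44.8 against 18.3 and a ratio of 2.45 (1.48 to 4.15). At 24 h it was lower, with 6.30 against 22.2 and a ratio of 0.284 (0.105 to 0.662). Il33 lies on chromosome 19 (chr19:29925114-29960718), away from the other ligands.

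The antagonist gene Il1rn showed no call at 5 h and was lower in the treated libraries of replicate 1. Its normalized counts at 5 h were 34.1, 0 and 37.9 in untreated replicates 2 to 4 and 35.6, 7.38 and 45.2 in the treated ones. Replicate 3 was the lowest of both groups, and the groups overlapped. The log2 fold change of 1.13 had an SE of 1.49 (limma adjusted p = 0.684), and it turned to -0.61 without untreated replicate 3, the library at 0.

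In replicate 1 the Il1rn counts of the untreated and treated libraries were 99.3 and 78.2 at 1 h, 110 and 77.4 at 5 h, 69.5 and 22.9 at 12 h, and 225 and 20.7 at 24 h. The ratio was 0.788 at 1 h, with an interval that included 1 (0.545 to 1.12), and 0.704 at 5 h (0.512 to 0.975). It was 0.329 at 12 h (0.201 to 0.519) and 0.0919 at 24 h (0.0574 to 0.141). At 24 h, 23 reads in the treated library stood against 294 in the untreated one. From 1 to 24 h the untreated level went up 2.27-fold (1.82 to 2.84), whereas the treated level at 24 h was 0.265 of that at 1 h (0.153 to 0.447).

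Leukocytes are a rich source of the Il1rn product, and their markers moved with this gene in part of the comparisons only. The summed normalized count of 10 leukocyte markers in replicate 1 ranged from 1185 to 1978 in the untreated libraries and from 406 to 1290 in the treated ones, with 8 to 10 markers having reads. The sum was lower in the treated library at all 4 times, as was the Il1rn count. Untreated and treated sums were 1448 and 1290 at 1 h, 1213 and 536 at 12 h, and 1185 and 406 at 24 h. At 5 h they were 1978 and 528, a wider gap than that of Il1rn (110 and 77.4). From 1 to 24 h without treatment, the sum went from 1448 to 1185 while Il1rn went up. In untreated replicates 2, 3 and 4 the sums were 275, 166 and 1443, and in the treated ones 219, 211 and 1267, so that the lowest sum of each group was in replicate 3, as was the lowest Il1rn count, but untreated replicates 2 and 4 had near Il1rn counts at very different sums. Lyz2 led these markers, Fcgr1 had at most 2 reads in any library, and Ptprc had at most 22. The part of these markers in the Il1rn values was not tested, and in bulk RNA fewer cells of a type and less RNA per cell cannot be told apart.

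Il1r1, the signaling receptor of interleukin-1, was well expressed in every library. At 5 h its normalized counts were 903, 1427 and 671 in untreated replicates 2 to 4 and 1475, 1800 and 1076 in the treated ones. Each treated library was above the untreated one of its number, but the groups overlapped. The mean was 1000.3 ± 388 (SD, n = 3) untreated and 1450.4 ± 363 (SD, n = 3) treated. A log2 fold change of 0.57 with an SE of 0.31 did not pass (limma adjusted p = 0.305), and it passed with the replicate number as a term (limma adjusted p = 0.00409). In replicate 1 the treated library was higher at 1 h (3505 untreated, 4098 treated) and at 5 h (1018 and 2636), and lower at 12 h (1522 and 1362) and at 24 h (2925 and 1799). The ratios were 1.17 (1.11 to 1.23), 2.59 (2.38 to 2.83), 0.895 (0.836 to 0.957) and 0.615 (0.583 to 0.650) in that order.

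The co-receptor gene Il1rap differed little at 5 h in replicates 2 to 4. Untreated counts of 982, 780 and 1225 stood against treated counts of 1055, 1148 and 1492. The groups overlapped, and the log2 fold change of 0.31 with an SE of 0.21 did not pass (limma adjusted p = 0.398). Replicate 1 showed a wider gap after the first hour. Its counts were 1193 untreated and 822 treated at 1 h, 544 and 1721 at 5 h, 855 and 3246 at 12 h, and 1099 and 3147 at 24 h. Accordingly, the ratio was 0.690 (0.620 to 0.766) at 1 h and 3.16 (2.82 to 3.56), 3.79 (3.55 to 4.06) and 2.86 (2.69 to 3.05) at the later times. The treated level at 12 h was 3.95 times that at 1 h (3.58 to 4.35), whereas the untreated level at 12 h was 0.717 of that at 1 h.

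Transcript length moved with some of these ratios. Across genes, which are not independent replicates, the log2 ratio of treated to untreated in replicate 1 correlated with exonic length (Spearman's rho -0.43 for 1 h, 0.42 for 5 h, 0.17 for 12 h and -0.21 for 24 h). Il1rap has 11360 exonic bases in the GENCODE annotation, the most of the 8 genes. With the length trend of the treated to untreated ratios removed, its log2 ratio was -0.09 in place of -0.54 at 1 h. It was 1.14 in place of 1.66 at 5 h, 1.80 at 12 h and 1.65 at 24 h. For Il1a, with 1974 exonic bases, the log2 ratio was 6.17 in place of 6.64 at 1 h. At 5 h it was 6.91 in place of 6.37, so that the second exceeded the first after the correction. In replicates 2 to 4, rho was -0.32, -0.21 and -0.39, and the length trend was removed from each library instead. This gave Il1rap a log2 fold change of 0.58 (limma adjusted p = 0.232). With the replicate number as a further term, that value passed (limma adjusted p = 0.00231).

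The decoy receptor gene Il1r2 had few reads, and its treated values were higher than the untreated ones throughout. At 5 h its counts were 2.20, 0 and 3.25 in untreated replicates 2 to 4 and 10.2, 7.38 and 6.78 in the treated ones, from at most 9 reads in a library. It was below the minimum for the test. In a fit over all 21663 genes with a read in this set, the log2 fold change was 1.91 with an SE of 0.70 and did not pass (limma adjusted p = 0.236). The same fit with the replicate number as a term passed (limma adjusted p = 0.0411). In replicate 1 the untreated and treated counts were 14.1 and 34.8 at 1 h, 13.1 and 31.7 at 5 h, 5.85 and 22.9 at 12 h, and 18.4 and 36.0 at 24 h. The ratios of 2.47, 2.42, 3.91 and 1.96 had intervals above 1, the lowest bound being 1.12.

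Il1rl1, the gene of ST2, had the highest level of the 8 genes and rose with treatment. Normalized counts at 5 h were 14763, 24427 and 23399 in untreated replicates 2 to 4 and 53828, 63664 and 62300 in the treated ones. The lowest treated library was above the highest untreated one by more than the whole range of the untreated group. The mean was 20863 ± 5308 (SD, n = 3) untreated and 59931 ± 5329 (SD, n = 3) treated, a ratio of 2.87. The log2 fold change was 1.55 with an SE of 0.23 (limma adjusted p = 0.0402). Without 1 library it lay between 1.32 and 1.69, but the call was lost without untreated replicate 2 (limma adjusted p = 0.110), 3 (adjusted p = 0.0574) or 4 (adjusted p = 0.134) and without treated replicate 2 (adjusted p = 0.156) or 4 (adjusted p = 0.178). It was also lost in limma without the trend (adjusted p = 0.0617). The 21 alternatives gave it an adjusted p between 1.19e-08 and 0.178. Fits without 1 library did not use the replicate number as a term. With that term and all 6 libraries, Il1rl1 passed (limma adjusted p = 4.54e-05), where 17.9% of all genes were called higher.

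In replicate 1, the treated level of Il1rl1 was nearly constant and the untreated level went down with time. The treated counts were 105254, 108412, 107238 and 107271 at 1, 5, 12 and 24 h. Untreated counts at the same times were 57860, 54136, 31274 and 17347. The treated libraries thus spanned a narrow range, and the untreated level at 24 h was 3.34 times lower than at 1 h. Treated to untreated ratios were thus 1.82, 2.00, 3.43 and 6.18 from the first to the last time. Once the length trend was removed, the log2 ratio was 1.18 in place of 0.86 at 1 h and 0.73 in place of 1.00 at 5 h, so that the first exceeded the second, and those at 12 and 24 h were 1.71 and 2.69.

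The reads of Il1rl1 took a large share of each library. They made up 0.436% to 0.588% of all reads in the treated libraries of replicate 1 and 0.0988% to 0.277% in the untreated ones. In replicates 2 to 4 the shares were 0.289% to 0.355% and 0.0822% to 0.140%. Counts per gene do not separate the membrane form of ST2 from the secreted one. Mast cells also express ST2, and their markers were checked: Cpa3 and Fcer1a were at 0 in all 14 libraries, and the sum of 5 mast cell markers ranged from 0 to 4.18 normalized counts in replicates 2 to 4. In replicate 1 that sum ranged from 40.6 to 161 untreated and from 21.6 to 216 treated, with Cma1 leading.

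**Figure D2:**
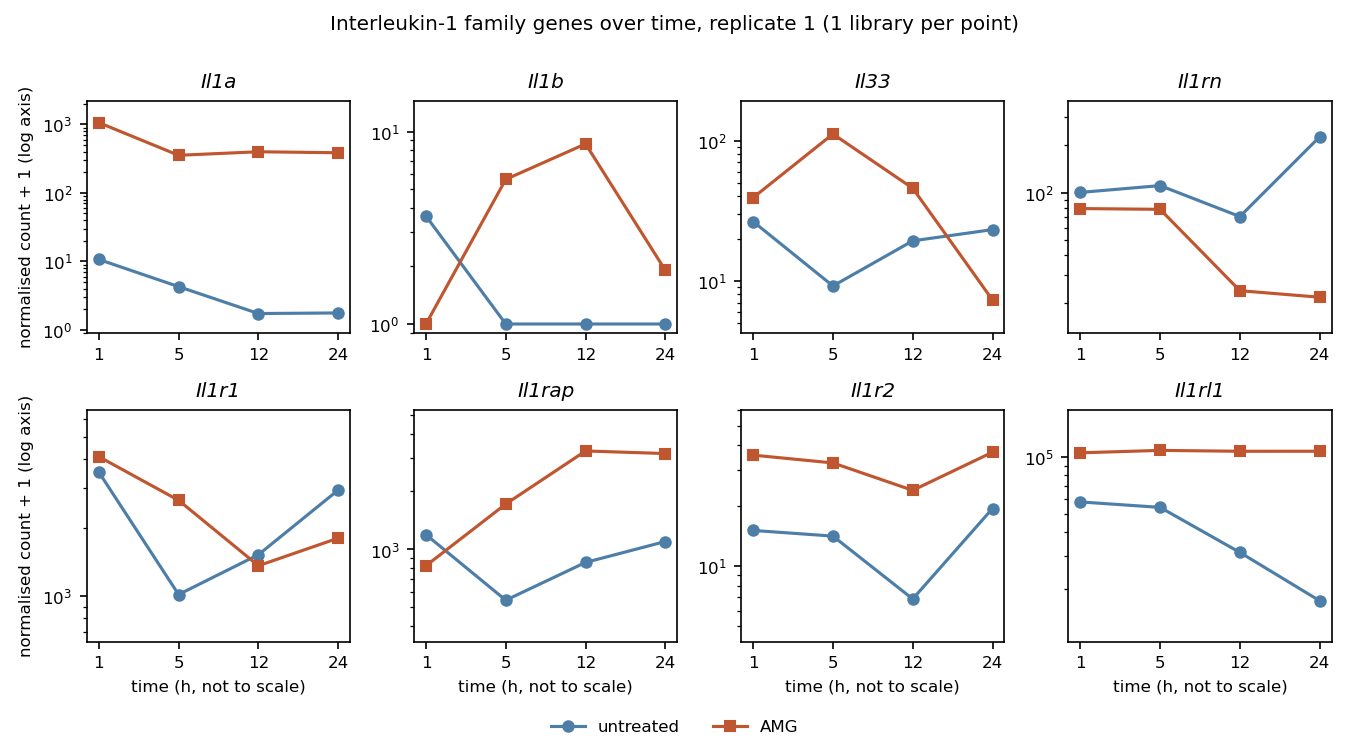
Normalized counts plus 1 (log axis, one scale per gene) of the 8 genes in replicate 1 at 1, 5, 12 and 24 h, with 1 library per point. Treated Il1rl1 stays between 105254 and 108412 while untreated Il1rl1 goes from 57860 to 17347, and treated Il1a is above untreated Il1a at all 4 times.

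Across the 4 times of replicate 1, a gene was counted when its mean normalized count was at least 10 and its ratio was past 2-fold on the log2(normalized count + 1) scale. At 1 h, 2 genes were higher (Il1a and Il1r2) and 0 lower, beside 11.3% of all 13498 genes higher and 10.7% lower. With the length trend removed, 2 were again higher, but Il1rl1 (log2 ratio 1.18) took the place of Il1r2 (0.75). At 5 h, 6 were higher and 0 lower, beside 13.3% and 12.6%. Il1rl1 was at the threshold at that time, and 5 were higher once the length trend was removed. At 12 h, 5 were higher and 1 (Il1rn) lower, beside 5.93% and 6.9%. At 24 h, 3 were higher (Il1a, Il1rap and Il1rl1) and 2 lower (Il1rn and Il33), beside 6.05% and 8.05%. Il1b was not counted. Il1a, with untreated counts of 0.732 to 9.67, passed the minimum only through its treated libraries, so that its place in these counts is no support by itself.

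**Figure D3:**
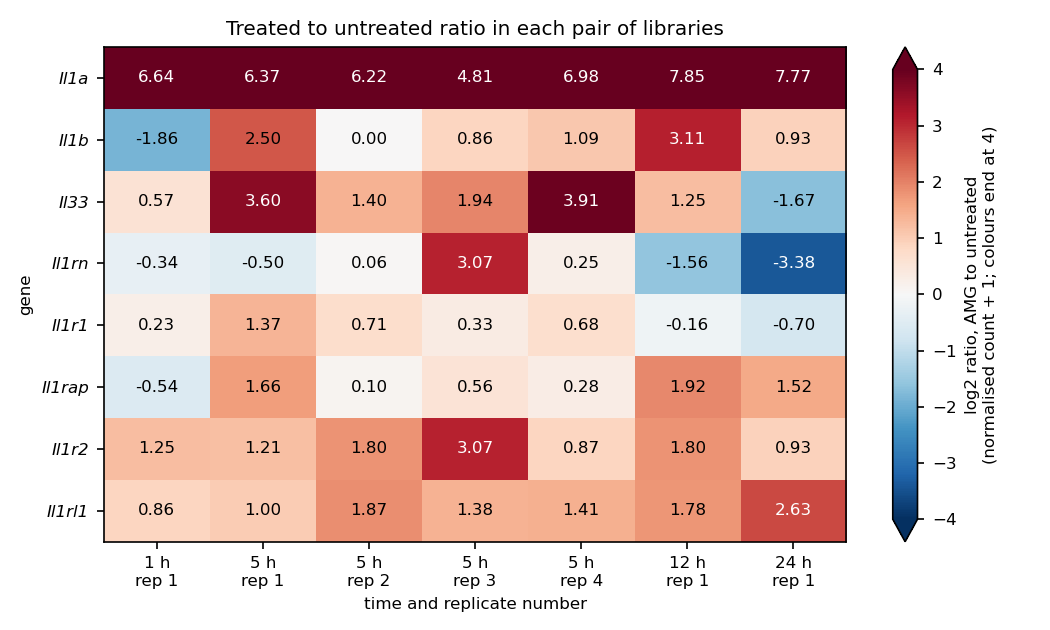
Log2 ratio of treated to untreated normalized counts plus 1 for each of the 8 genes (rows) in each pair of libraries with the same time and replicate number (columns). Red is higher and blue lower with treatment; Il1a is between 4.81 and 7.85 in all pairs, Il1rl1 between 0.86 and 2.63, and Il1rn reaches -3.38 at 24 h.

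Considering the 4 pairs at 5 h together, Il1a, Il1r1 and Il1rl1 were higher with treatment in 4 of 4, each with a counting interval of the ratio above 1. Il33, Il1r2 and Il1rap were also higher in 4 of 4, with the interval above 1 in 3, 2 and 3 pairs. Il1rn was higher in 3 of 4 pairs, and the interval was above 1 in 1 of them, that of replicate 3, with 9 reads against 0. The share of all genes with such pairs was not computed, so that these counts are a description. The intervals cover counting error only and exclude 1 at small ratios where reads are many, as for Il1r1 in replicate 3 (1.26, interval 1.17 to 1.36). In an edgeR fit on the whole reads of all 4 replicates with the set as a term, Il1a (adjusted p = 0.00781) and Il1rl1 (adjusted p = 0.0220) passed. Il33 (adjusted p = 0.0772), Il1r1 (adjusted p = 0.258), Il1rap (adjusted p = 0.318) and Il1rn (adjusted p = 0.986) did not. That fit called 180 of 13096 genes higher and 51 lower.

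Levels were compared between genes as normalized counts per kilobase of exonic length. In untreated replicates 2 to 4 the order was Il1rl1 with 3026 ± 770 (SD, n = 3), Il1r1 with 157 ± 60.9, Il1rap with 87.6 ± 19.6 and Il1rn with 4.33 ± 3.77, all as the mean per kilobase. Il33 (1.11 ± 1.02), Il1r2 (0.951 ± 0.868), Il1a (0.0913 ± 0.158) and Il1b (0) came below. Il1r1 and Il1rap overlapped in their ranges, as did each pair of neighbors from Il1rn down. In the treated libraries Il1rl1 (8693 ± 773), Il1r1 (228 ± 57.0) and Il1rap (108 ± 20.3) kept this order, and Il1a came next with 49.6 ± 43.4 per kilobase, its range overlapping that of Il1rap. By their means in this set, Il1rl1, Il1r1 and Il1rap stood above the 3 ligand genes in both groups, and Il33 was the highest ligand without treatment and Il1a with it. Replicate 1 differed in its treated libraries, where Il1a had a mean of 278 per kilobase over the 4 times against 197 for Il1rap, and at 1 h had 537 against 72.4.

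**Figure D4:**
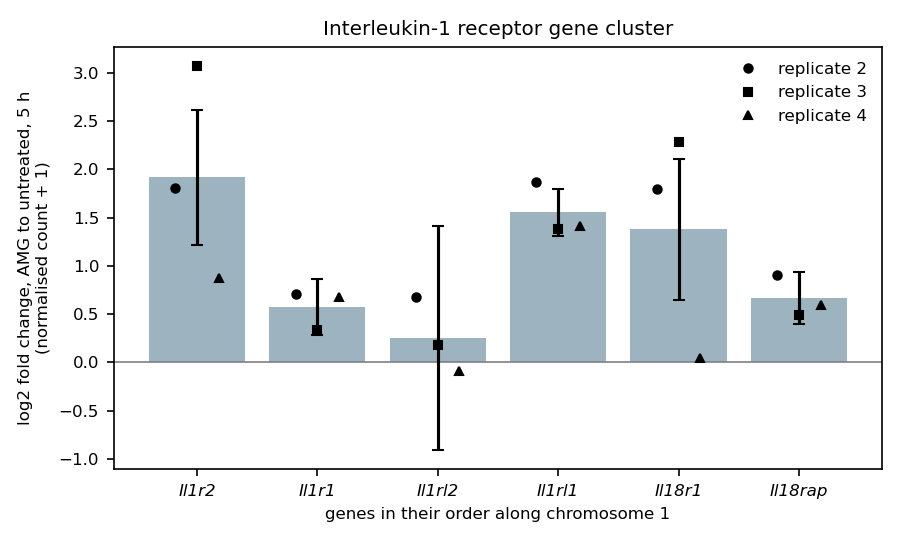
Log2 fold change of treated against untreated at 5 h (replicates 2 to 4, normalized counts plus 1) for the 6 receptor genes in their order along chromosome 1. Bars are the limma estimates over all genes with a read, error bars are SE and points are the pairs of replicates 2, 3 and 4; all 3 points of Il1rl1 lie above 1, and those of Il1rl2 lie on both sides of 0.

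Il1r2, Il1r1 and Il1rl1 belong to a cluster of 6 receptor genes on the plus strand of chromosome 1 (chr1:40074079-40551705), which also holds Il1rl2, the receptor of interleukin-36, and the interleukin-18 receptor genes Il18r1 and Il18rap. In the fit over all genes with a read, Il1rl1 passed (limma adjusted p = 0.0339) and the other 5 did not. That fit called 131 of 21663 genes higher and 37 lower. With the replicate number as a term, Il1r2 (limma adjusted p = 0.0411), Il1r1 (adjusted p = 0.000677) and Il18rap (adjusted p = 0.000505) passed as well. Il1rl2 (adjusted p = 0.382) and Il18r1 (adjusted p = 0.146) did not. The fit with this term called 2395 of the 21663 genes higher and 2498 lower. Il1rl2, which lies directly between Il1r1 and Il1rl1, had counts of 41.8, 781 and 143 in untreated replicates 2 to 4 and 67.4, 884 and 134 in the treated ones. Its values followed the replicate number rather than the treatment, with a log2 fold change of 0.26 and an SE of 1.16. Il18rap had counts of 362, 447 and 674 untreated and 679, 628 and 1019 treated. Its log2 fold change of 0.66 with an SE of 0.27 did not pass without that term (limma adjusted p = 0.281). The neighbor of Il1rl1, Il18r1, had at most 14 reads in this set, with a log2 fold change of 1.38 and an SE of 0.73. In replicate 1 the log2 ratio of Il1rl2 lay between 0.02 and 0.60 over the 4 times, against 0.86 to 2.63 for Il1rl1.

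Among the other 13 genes of the family, 5 were tested at 5 h and 0 were called, with a median log2 fold change of 0.66 beside -0.02 over all genes. With the replicate number as a term, 2 of 5 rose, Il18rap and Il36g, beside 17.9% of all genes called higher. Il36g passed the minimum only through its treated libraries. Il36g, an epithelial ligand listed under its older symbol Il1f9, had a mean of 7.63 untreated and 29.6 treated (log2 fold change 1.70, SE 0.69, limma adjusted p = 0.207, with the replicate term adjusted p = 0.0193). Il18, another ligand that needs caspase-1, had means of 47.8 and 41.0 (limma adjusted p = 0.802). Il18bp, the secreted inhibitor of interleukin-18, had means of 21.1 and 38.0 (limma adjusted p = 0.254). Il36b, Il36rn, Il1f10 and Il1rapl2 were at 0 in every library. The keratinocyte markers Krt5 and Krt14 had at most 3 reads and Krt1 had 0, whereas the sum of 8 such markers was 76.6 to 250 untreated and 133 to 704 treated in replicates 2 to 4. Sfn made up most of that difference, with means of 133 and 461, while Trp63 had means of 26.2 and 2.45, Krt10 of 29.1 and 39.0, and Epcam of 2.00 and 1.55. Their part in the Il36g and Il1a values was not tested.

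Of 10 genes for the processing and release of these cytokines, 6 were tested. Of these, 1 rose and 0 fell, beside 0.97% of all genes called higher and 0.267% lower, with a median log2 fold change of 1.14. The gene that rose was Casp4, which encodes mouse caspase-11, the sensor of intracellular lipopolysaccharide (means of 37.9 ± 9.12 and 174 ± 22.8, SD, n = 3; log2 fold change 2.19, SE 0.27, limma adjusted p = 0.0208). With the replicate number as a term, 4 of 6 rose, beside 17.9% of all genes. Among these was Nlrp3, which passed the minimum only through its treated libraries (means of 1.91 untreated and 98.7 treated). Casp1, the enzyme that matures interleukin-1 beta, had means of 3.84 and 4.69 and was below the minimum.

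The 16 genes of receptor signaling were all tested, and 0 were called in either direction, with 8 above 0 and 8 below and a median log2 fold change of 0.01. With the replicate number as a term, 3 rose and 1 fell, shares of 16 genes to be read against 17.9% of all genes higher and 19.3% lower in that fit. In contrast, 21 genes were listed that fibroblasts are known to switch on in answer to interleukin-1. Of these, 16 rose and 0 fell, beside 0.97% of all genes called higher and 0.267% lower. Their median log2 fold change was 3.59, and all 21 were above 0. Csf2, Ccl20 and Il6, with untreated means of 0, 8.99 and 9.63, passed the minimum only through their treated libraries. These lists were chosen with results of these data known, so that their counts are a description. The genes with the largest change were the chemokine genes Ccl20 (log2 fold change 9.20, SE 1.00, limma adjusted p = 0.0190), Cxcl2 (9.13, SE 0.95, adjusted p = 0.0190) and Cxcl1 (7.58, SE 0.49, adjusted p = 0.00567). Csf2, a growth factor of granulocytes and macrophages, had 0 reads in the untreated libraries and a mean of 189 ± 150 treated (SD, n = 3, limma adjusted p = 0.0414). Il6 had means of 9.63 ± 13.4 and 671 ± 448 (limma adjusted p = 0.0402). Most of these genes also answer to other inflammatory signals. The whole of the 4 lists gave 17 genes called higher, and without 1 library between 0 and 23: 5, 11 and 4 without untreated replicates 2, 3 and 4, and 0, 23 and 4 without treated replicates 2, 3 and 4.

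Within the 8 libraries of replicate 1, the genes whose log2 level followed that of a member most closely were found by Pearson's r. These libraries share a scaling, and 4 of them are treated, so the values are descriptions that include the treatment itself. Il1a was followed by Olr1, Nod2 and Zc3h12a, each with r = 0.987, and over the 6 libraries of replicates 2 to 4 these had r = 0.798, 0.953 and 0.991. Il1rl1 was followed by the metalloprotease gene Mmp10 (r = 0.983, and 0.957 over the other 6 libraries), U90926 (0.976 and 0.612) and Rbpms2 (0.974 and 0.451). For Il1rap these were Ccbe1 (0.993 and 0.567), the cadherin gene Cdh11 (0.985 and 0.302) and Lrig1 (0.981 and 0.5998). Il1r2 came with Cd1d1 (0.977 and 0.743), Ccl5 (0.931 and 0.746) and Ptger2 (0.927 and 0.214). The likeness was not kept for several genes of the remaining members: Aldh1l1 had r = 0.959 with Il1rn over the 8 libraries and -0.778 over the other 6, Car9 had 0.962 and -0.703 with Il1r1, and Mbtd1 had 0.978 and -0.216 with Il33. Scn7a and Nrbp2 for Il1rn, Zcchc7 and Ccdc62 for Il33, and Bach1 and Sde2 for Il1r1 completed the list, with r between 0.932 and 0.965 over the 8 libraries and between 0.250 and 0.873 over the 6. Among the members themselves, Il1a and Il1rl1 were the most alike over the 8 libraries (r = 0.911), and Il1rap and Il1rn the most opposed (r = -0.764).

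Genes that overlap the members in the annotation had few reads where they were among the genes listed. Gm38070 and Gm37347, on the same strand as Il1r1 and Il1r2, were not listed, so that their reads are unknown. Gm14023, on the opposite strand of Il1a, had at most 8 reads in a library, and Il1bos, opposite Il1b, had at most 4. Gm16894 and Gm20319, opposite Il1r2 and Il1rap, had at most 6 and 1. The strand setting of the counting is not given in the sources used here, so that reads of such pairs cannot be told apart. No annotated gene overlaps Il1rn, Il33 or Il1rl1.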

How the data were processed

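Libraries were prepared by the authors with a stranded mRNA kit and sequenced as single-end reads of 50 bases. Reads were checked with FastQC 0.11.5, aligned to the mouse genome mm10 with TopHat 2.0.13, restricted to unique alignments, handled with SAMtools 0.1.19.24 and counted per gene with HTSeq 0.5.3p3. The annotation release and the strand setting are not given in the sources used here. The deposited values are a normalized signal: the authors divided the counts of each library by a DESeq size factor, separately for replicate 1 (8 libraries) and for replicates 2 to 4 (6 libraries). Dividing each library by its smallest step gave whole reads for 100% of the values within a tolerance of 0.1.

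Sample titles gave the group and the replicate number. The main test was limma 3.58.1 (lmFit, eBayes with trend, R 4.3.3) on log2(normalized count + 1), which understates the change of low genes, with a mean of at least 10 and Benjamini-Hochberg adjustment over all genes tested, and a call at an adjusted p under 0.05. Replicate 1 was described by ratios of whole reads with exact conditional binomial 95% intervals, which cover counting error only because reads carry no molecular identifiers. Treated and untreated libraries with the same replicate number deviated together from the means of their groups (r = 0.65, 0.76 and 0.70, against -0.59 to 0.12 for other pairs), so the numbers were taken to pair the libraries. This rests on the data alone, since what a number stands for is not labeled. Alternatives were other pseudocounts (0.1 and 10), minimums, scalings, a length correction (loess, span 0.3), the replicate block, edgeR 4.0.16 and DESeq2 1.42.0 on the whole reads, and leaving out each library. Scripts were tested on simulated data. Gene lengths and positions are from the GENCODE vM21 annotation of mm10, and sequences from RefSeq. No protein sequence was used here.

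The members, lists, tests and alternatives were chosen with earlier results of these data known. The named genes were the 8 members; from each list up to 5 genes with the largest change among those called and not overlapping; all other family genes with a mean of at least 10; and, for each member with a mean of at least 10 in replicate 1, the 3 genes with the highest r. Genes named outside this rule (Casp1, Nlrp3, Il18r1, markers, overlapping genes, and genes at 0) were chosen after their values were seen.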

Additional observations from a re-analysis of the deposited data

Results flagged for a closer look

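In replicate 1, 3 of the genes with a mean normalized count of at least 10 had a ratio of treated to untreated that pointed one way at some times and the other way at others. The log2 ratio of Il33 was 1.25 at 12 h and -1.67 at 24 h. For Il1r1 the values were 0.23 and 1.37 at the first times, 1 and 5 h, and -0.16 and -0.70 at 12 and 24 h. That of Il1rap was -0.54 at 1 h (-0.09 with the length trend removed), 1.66 at 5 h, 1.92 at 12 h and 1.52 at 24 h. Each rests on 1 library per group and time, and the difference between times was not tested. Il1b, below that mean, had -1.86 at 1 h from 0 reads treated against 3 untreated, and positive values later. As a share of the reads of its library, no library stood apart from the other 3 by Dixon's 95% criterion for 4 samples in the 16 groups searched, the 8 genes in each treatment at 5 h, with a largest gap of 0.824 of the range (treated Il1r2). On the normalized counts, which were scaled separately in the 2 sets, replicate 1 stood apart for treated Il1r2 (0.864) and untreated Il1a (0.835, from at most 2 reads). Chance gives about 1 such group in 20.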

How the results depend on the processing

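Members called higher at 5 h numbered 2 and became 1 with a pseudocount of 10, a mean of at least 50 or limma without the trend, 4 with the replicate block, 5 with the block in edgeR or with the length correction and block, and 6 with the block over all genes above 0 (an alternative added after seeing the data). With a mean of at least 50, Il1a was not tested, because its mean was 49.1. Leaving out 1 library gave 0 to 2 members. For the pathway lists, 17 higher became 30 with the replicate block, 26 with DESeq2, and 31 with the block in edgeR, with the length correction and block and with the block over all genes above 0 (0 to 23 without 1 library), and 0 lower became 1 in these 4 block fits. Over all genes, 127 higher and 35 lower became 2345 and 2527 with the replicate block, 854 and 580 with DESeq2, 2416 and 2436 with the block in edgeR, 2336 and 2099 with the length correction and block, 2395 and 2498 with the block over all genes above 0, and 208 and 66 with edgeR over all genes above 0 (added after seeing the data); without the trend, 56 were higher. Leaving out 1 library gave 1 to 1146 higher and 0 to 1054 lower, the highest without treated replicate 3. In replicate 1, members past 2-fold became 1 with a pseudocount of 10 at 1 h (higher, from 2) and at 24 h (lower, from 2), and 1 lower at 1 h with all members counted (from 0). The log2 fold change of Il1rn reversed to -0.61 without untreated replicate 3, and was at most 2.03 with 1 library left out (without untreated replicate 4) and 2.18 with a pseudocount of 0.1. The cause of these shifts was not tested. Few reads limit Il1b, Il1r2 and Il33: the deepest library, of 34696529 reads, had 0, 6 and 3 of them.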
